A study of Mus musculus with 4 samples.

Results

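The 8 genes of the p53 and growth-arrest response, taken by their symbols, were followed in liver of male ob/ob mice: Cdkn1a, Mdm2, Ccng1, Gadd45a, Gadd45b, Gadd45g, Btg2 and Sesn2. These are 8 of the 24346 gene symbols listed, and all 8 were above 0 in every library. Ob/ob mice are obese because they lack leptin. From 6 weeks of age the mice were fed for 4 weeks with regular chow diet (CD) or western type diet (WD), each with or without 0.01% 7-ketocholesterol (7KC), an oxidized cholesterol, and cholesterol made up 1% of all 4 diets. Each of the 4 diets gave 1 library, named CD, CD+7KC, WD or WD+7KC, and the sources used here do not say how many mice stand behind a library. No difference between groups therefore has a replicate check, no p-value is given, and differences between mice and between diets cannot be told apart.

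As background, p53 is a transcription factor that is held at a low level by the ubiquitin ligase Mdm2 and accumulates when DNA is damaged or the cell is stressed. It binds pairs of short half-sites in DNA and switches on genes that stop the cell cycle, repair DNA or start cell death, and Mdm2 is itself one of its targets, which closes a feedback loop. Several of these genes are also induced without p53, by growth factor withdrawal, cytokines, amino acid shortage or oxidative stress, and in the liver they are known to respond to feeding and injury.

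The promoter sequences of Cdkn1a and Ccng1 are shown first, because their windows held a p53 site. RefSeq promoter sequences (build GRCm38.p6) were matched for 8 of 8 genes, with 9 windows because Cdkn1a has more than 1 start. The 250 bases before each start were searched on both strands for the p53 half-site of 10 bases and for a p53 site of 20 bases, that is a pair of adjoining half-sites with at most 1 base off the pattern. The 20-base site was found in 25 of 32851 windows in the annotation (0.0761%), and Cdkn1a and Ccng1 were among these 25 genes. In Cdkn1a (chr17:29090729-29090978, plus strand) it began 51 bases before the start, and a further half-site began 73 bases before the start. In Ccng1 (chr11:40755287-40755536, minus strand) it began 195 bases before the start. Both sites had 1 base off the pattern and overlapped an exact half-site. Capitals mark the 20-base site in each and the further half-site in Cdkn1a.
Cdkn1a: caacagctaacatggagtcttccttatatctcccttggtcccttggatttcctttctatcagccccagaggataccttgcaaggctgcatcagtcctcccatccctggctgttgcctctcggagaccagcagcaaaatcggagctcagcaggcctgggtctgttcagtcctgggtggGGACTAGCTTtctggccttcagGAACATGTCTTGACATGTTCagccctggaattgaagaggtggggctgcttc
Ccng1: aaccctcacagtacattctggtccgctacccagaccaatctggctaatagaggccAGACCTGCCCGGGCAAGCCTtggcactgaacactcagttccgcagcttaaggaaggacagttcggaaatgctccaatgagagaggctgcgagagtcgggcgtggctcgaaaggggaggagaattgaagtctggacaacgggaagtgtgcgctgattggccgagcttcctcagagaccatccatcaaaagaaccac

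Single p53 half-sites, which 7.13% of all windows held, were also found in Mdm2 and Gadd45a. Such a match is a description of letters in a window of 250 bases and not a site of measured binding, and nothing was measured here on binding of p53. Of the 25 genes with the 20-base site, 14 were listed by symbol and 6 had a mean of at least 1 FPKM. FPKM, a count of fragments scaled by transcript length and library depth, is a level per length and can be set side by side between genes. These 6 were Bco1, Calhm2, Ccng1, Cdkn1a, Mthfd1 and Rps27l. Their median log2 difference in CD+7KC relative to CD was 0.19, with 5 higher and 1 lower, and in WD+7KC relative to WD it was 0.14, with 4 higher and 2 lower. After the libraries were rescaled to equal FPKM sums these medians were 0.23, with 6 higher and 0 lower, and 0.36, with 5 higher and 1 lower. Over all genes the rescaled medians were 0.035 under CD and 0.21 under WD. Ccng1 and Cdkn1a are themselves among the genes followed here. Calhm2 was at 0.394, 0.539, 0.916 and 2.36 FPKM in CD, CD+7KC, WD and WD+7KC. It reached the mean of 1 FPKM only through WD+7KC, so the filter favoured its higher value in WD+7KC relative to WD (1.28).

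The windows of Btg2, Gadd45b and Gadd45g are shown because these genes differed most in level between libraries (Btg2, Gadd45g) or belong to the same family (Gadd45b). The motif TGACGTCA, a cyclic AMP response element, was in 1.55% of all windows and in that of Btg2 (chr1:134079156-134079405, minus strand), where it began 166 bases before the start. The E-box CACGTG was in 6.02% of all windows and, of the 8 genes, in Gadd45b (chr10:80929841-80930090, plus strand), 185 bases before the start, and in Gadd45g (chr13:51846425-51846674, plus strand), 142 bases before the start. Gadd45g also held the motif TGATGCAA on the minus strand, which 0.791% of all windows held, 101 bases before the start. These matches are in capitals. The forkhead motif GTAAACA, in 3.17% of windows, was found in Mdm2 alone of the 8 genes, and the windows of Sesn2 and of the second Cdkn1a start held none of the motifs searched.
Btg2: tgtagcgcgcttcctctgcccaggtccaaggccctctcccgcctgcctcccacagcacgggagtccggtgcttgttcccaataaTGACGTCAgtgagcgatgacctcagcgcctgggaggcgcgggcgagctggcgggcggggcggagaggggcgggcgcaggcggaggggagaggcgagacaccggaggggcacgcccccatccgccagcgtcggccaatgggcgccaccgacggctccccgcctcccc
Gadd45b: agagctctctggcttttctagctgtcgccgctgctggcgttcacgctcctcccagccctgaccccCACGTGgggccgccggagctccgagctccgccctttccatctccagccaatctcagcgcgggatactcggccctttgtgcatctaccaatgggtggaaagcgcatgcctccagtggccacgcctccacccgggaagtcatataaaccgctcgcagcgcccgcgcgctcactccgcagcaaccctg
Gadd45g: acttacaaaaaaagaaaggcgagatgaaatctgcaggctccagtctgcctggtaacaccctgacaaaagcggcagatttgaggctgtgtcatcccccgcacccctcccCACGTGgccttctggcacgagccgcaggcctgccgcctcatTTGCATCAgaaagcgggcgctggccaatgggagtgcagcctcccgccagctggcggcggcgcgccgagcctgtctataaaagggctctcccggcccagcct

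The libraries had similar depth. The FPKM values summed to between 602059 (WD+7KC) and 715605 (CD), and the steps between low values gave an estimate of 9390000 (WD) to 12110000 (WD+7KC) mapped fragments. Reads per gene were estimated from these depths, with the shortest RefSeq mRNA where a gene has more than 1, and they gave exact (Clopper-Pearson) 95% intervals for the log2 ratio of FPKM. These intervals cover counting error only. Log2 differences were computed as the log2 ratio of FPKM + 0.1. Because the sum was lowest in WD+7KC, rescaling to equal sums raised the median log2 difference of all genes in WD+7KC relative to WD from 0.002 to 0.21. Many values in this comparison are therefore also given after rescaling. With median-ratio scaling, the other scaling tried, the median of all genes was 0.003 there. All 7 hepatocyte markers were present, with Alb at 30014 FPKM or more in each library. With 7KC, 6 of 7 were lower under CD (median log2 difference -0.19) and 7 of 7 under WD (-0.26), or 4 of 7 under WD after rescaling (-0.045). The summed level of 10 macrophage markers ran from 153 FPKM (CD) through 242 FPKM (CD+7KC) and 256 FPKM (WD) to 512 FPKM (WD+7KC). That of 5 endothelial markers was 49.4, 73.6, 39.5 and 109 FPKM in the same order. Sums were 14.3 to 23.9 FPKM for 5 stellate cell markers, 2.42 to 3.78 FPKM for 4 cholangiocyte markers, 0.98 to 1.93 FPKM for 4 lymphocyte markers and 14.2 to 21.1 FPKM for 3 neutrophil markers. In whole liver a difference in the share of a cell type and a difference in RNA per cell cannot be told apart, and the part of these cells in the values below was not tested.

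The 8 genes were expressed at low to moderate levels. By their mean over the 4 libraries, Ccng1 was highest (21.1 FPKM), followed by Cdkn1a (19.7 FPKM), Btg2 (12.2 FPKM), Gadd45g, Mdm2 (9.44 FPKM), Gadd45a (5.17 FPKM), Sesn2 (3.36 FPKM) and Gadd45b (3.06 FPKM). Btg2 varied most, with its highest library 2.21 times its lowest, and Mdm2 least, with a factor of 1.13.

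**Figure D1:**
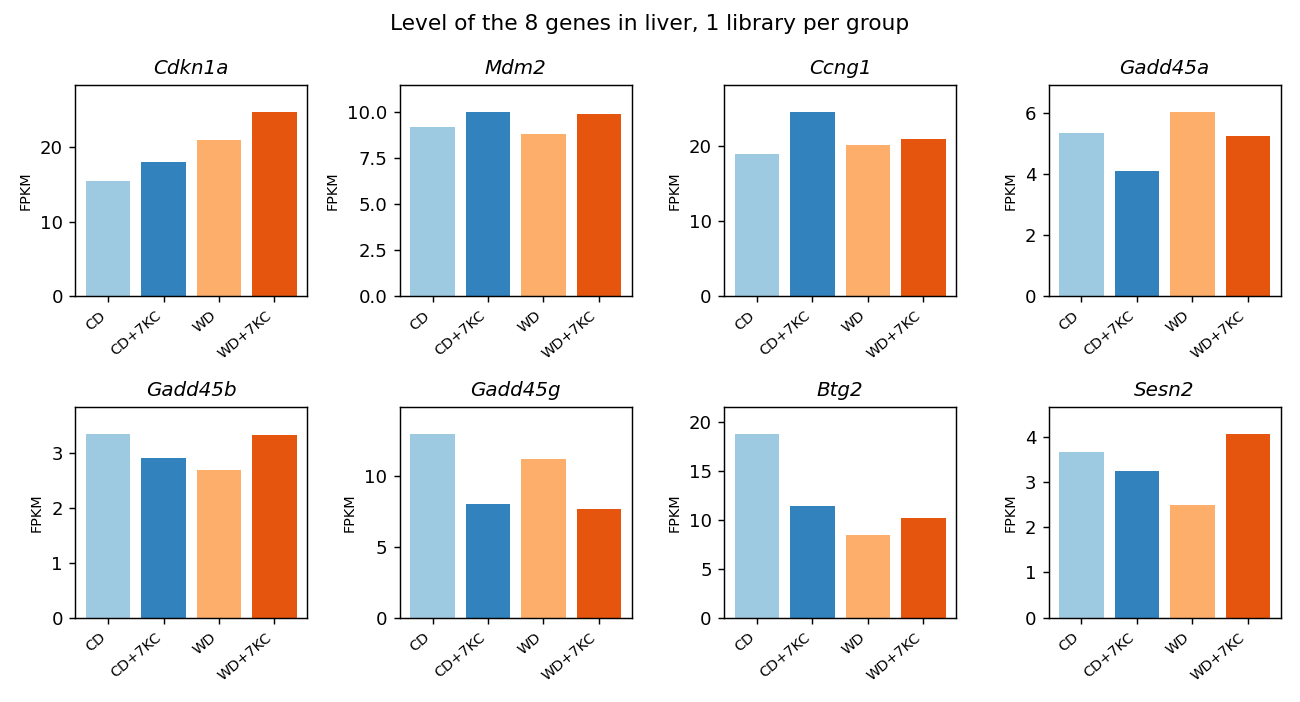
Level of each of the 8 genes in liver (y axis, FPKM, starting at 0) in the CD, CD+7KC, WD and WD+7KC libraries (x axis, 1 bar per library, no error bars because each group had 1 library). Cdkn1a ranged from 15.4 to 24.6 FPKM, Gadd45g was lowest in both libraries with 7KC, and Btg2 was highest in CD.

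Cdkn1a (ENSMUSG00000023067.14, chr17:29090976-29100727, plus strand, GRCm38) encodes p21, which binds and inhibits cyclin-dependent kinases and is the best known p53 target in growth arrest. It was at 15.4 FPKM in CD, 18.0 FPKM in CD+7KC, 20.9 FPKM in WD alone and 24.6 FPKM in WD+7KC, so both WD libraries were above both CD libraries. About 122, 142, 142 and 215 reads stood behind these values. The log2 difference was 0.22 in CD+7KC relative to CD (95% counting interval -0.13 to 0.59) and 0.24 in WD+7KC relative to WD (-0.081 to 0.55), both within counting error. Between diets it was 0.44 in WD relative to CD (0.091 to 0.81) and 0.45 in WD+7KC relative to CD+7KC (0.14 to 0.77), both beyond counting error. No neighbours in the order CD, CD+7KC, WD and WD+7KC were apart by more than counting error. After rescaling to equal sums, the interval in WD+7KC relative to WD was 0.14 to 0.76 and no longer included 0.

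Mdm2 (chr10:117688875-117710758, minus strand), the ligase that removes p53, was the flattest of the 8 genes. It was at 9.15 FPKM in CD, 9.96 FPKM in CD+7KC, 8.78 FPKM in WD alone and 9.87 FPKM in WD+7KC. The libraries with 7KC were higher under both diets, by 0.12 under CD (-0.11 to 0.36) and 0.17 under WD (-0.075 to 0.41) on the log2 scale, and all neighbours in its order lay within counting error. After rescaling, the difference under WD was 0.38, with an interval of 0.14 to 0.63. Ccng1 (chr11:40748552-40755311, minus strand) encodes cyclin G1, an atypical cyclin and p53 target that binds protein phosphatase 2A. It was at 18.98 FPKM in CD, 24.4 FPKM in CD+7KC, 20.2 FPKM in WD alone and 20.9 FPKM in WD+7KC. In the deposited scaling the CD+7KC library stood above the others, with a log2 difference of 0.36 relative to CD (0.22 to 0.51). The difference in WD+7KC relative to WD was 0.051 (-0.098 to 0.20), and it became 0.27 (0.12 to 0.42) after rescaling. In WD+7KC relative to CD+7KC the difference was -0.22 (-0.36 to -0.088), or -0.016 (-0.15 to 0.12) after rescaling.

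The Gadd45 genes encode small acidic proteins that bind cell cycle and stress kinases, and they are induced by DNA damage, cytokines or growth arrest. Gadd45g (chr13:51846678-51848468, plus strand) was at 12.99 FPKM in CD, 8.08 FPKM in CD+7KC, 11.2 FPKM in WD alone and 7.70 FPKM in WD+7KC. Both libraries with 7KC were below both libraries without it, and the smallest gap, between WD and CD+7KC, was 0.48 on the log2 scale (0.027 to 0.94). The log2 difference was -0.68 under CD (-1.12 to -0.27) and -0.54 under WD (-0.9997 to -0.10). After rescaling it was -0.64 under CD (-1.08 to -0.23) and -0.33 under WD, where the interval then included 0 (-0.78 to 0.11). Gadd45g was the only one of the 8 genes with counting intervals below 0 under both diets in the deposited scaling.

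Gadd45a (chr6:67035096-67037457, minus strand), the family member most closely tied to p53, was also lower with 7KC under both diets, but within counting error. It was at 5.35 FPKM in CD, 4.09 FPKM in CD+7KC, 6.01 FPKM in WD alone and 5.24 FPKM in WD+7KC, with about 46 to 65 reads in a library. Its log2 difference was -0.38 under CD (-0.97 to 0.19) and -0.20 under WD (-0.74 to 0.33), the latter 0.018 after rescaling. Gadd45b (chr10:80930073-80932204, plus strand), which is induced by NF-kappa B and TGF-beta signalling, was at 3.34 FPKM in CD, 2.90 FPKM in CD+7KC, 2.69 FPKM in WD alone and 3.33 FPKM in WD+7KC. With about 27 to 44 reads in a library, no neighbours in its order could be told apart at this depth.

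Btg2 (chr1:134075170-134079120, minus strand) encodes an antiproliferative protein of the BTG/TOB family that recruits the CCR4-NOT deadenylase to mRNAs, and it is both a p53 target and an immediate early gene. It was at 18.7 FPKM in CD, 11.4 FPKM in CD+7KC, 8.46 FPKM in WD alone and 10.2 FPKM in WD+7KC, with about 522, 317, 202 and 315 reads. The CD library stood above the other three. With 7KC, Btg2 was lower under CD, by a log2 difference of -0.72 (-0.93 to -0.52), and higher under WD, by 0.27 (0.015 to 0.54), or 0.49 after rescaling (0.23 to 0.75). In WD relative to CD its log2 difference was -1.14 (-1.39 to -0.91), while in WD+7KC relative to CD+7KC it was -0.15 (-0.38 to 0.076). Sesn2 (chr4:132492032-132510501, minus strand) encodes sestrin 2, which senses leucine, restrains the growth kinase mTORC1 and is induced by amino acid shortage and oxidative stress as well as by p53. It was at 3.66 FPKM in CD, 3.25 FPKM in CD+7KC, 2.497 FPKM in WD alone and 4.05 FPKM in WD+7KC. WD was the lowest library and WD+7KC the highest, and no neighbours in the order were apart by more than counting error. With 7KC its log2 difference was -0.17 under CD (-0.54 to 0.21) and 0.68 under WD (0.30 to 1.11), the largest positive difference of the 8 genes in either 7KC comparison. Whether the 7KC differences of Btg2 and Sesn2 depended on the diet could not be tested with 1 library per group.

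**Figure D2:**
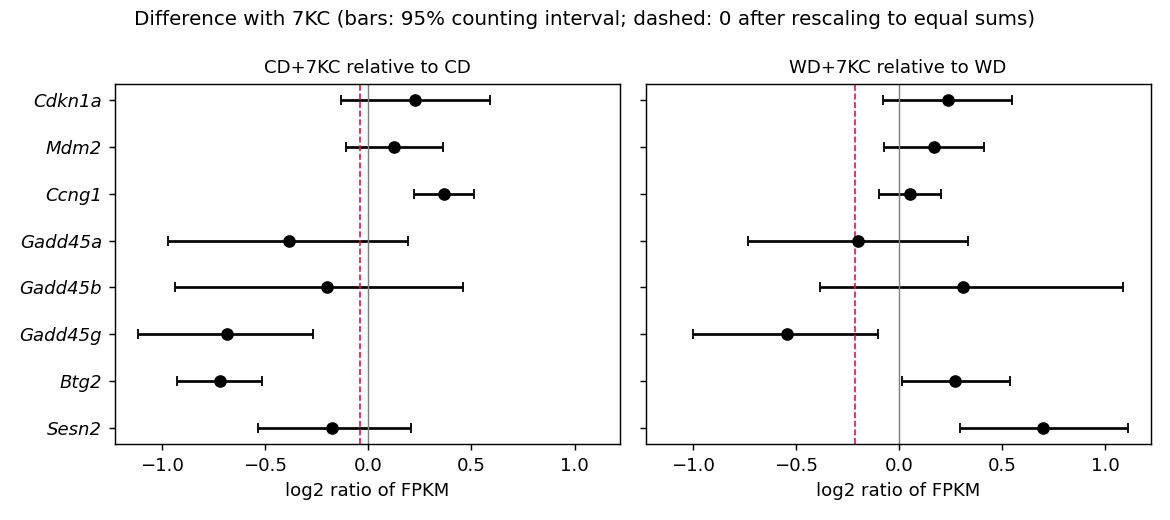
Log2 ratio of FPKM (x axis) for the 8 genes (y axis) in CD+7KC relative to CD (left) and WD+7KC relative to WD (right), with points for the ratio, bars for the 95% counting interval, and a dashed line where 0 lies after rescaling to equal sums. Gadd45g lies below 0 in both panels, Btg2 lies at -0.72 on the left and 0.27 on the right, and the dashed line is near 0 on the left and left of 0 by about 0.22 on the right.

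With 7KC, some of the 8 genes were higher and others lower under each diet. In CD+7KC relative to CD, 3 were higher and 5 lower with a median log2 difference of -0.18, beside a median of -0.001 over all 15684 genes above 0. In WD+7KC relative to WD, 6 were higher, 2 were lower and the median was 0.20, beside 0.002 over 15753 genes. After rescaling, 7 were higher, 1 was lower and the median was 0.42 beside 0.21 over all genes. Cdkn1a, Mdm2 and Ccng1 were higher under both diets, Gadd45a and Gadd45g lower under both, and Gadd45b, Btg2 and Sesn2 had opposite signs. None of the 8 was above 1 or below -1 in either comparison. Of all genes 6.75% were past 1 under CD (3.84% above 1 and 2.91% below -1) and 9% under WD (6.21% above 1 and 2.79% below -1). Counting intervals lay above 0 for 1 gene and below 0 for 2 genes under CD, where 31% of genes with 1 RefSeq mRNA and a mean of at least 1 FPKM had an interval that excluded 0 (13.8% above and 17.2% below). Under WD they lay above 0 for 2 genes and below 0 for 1 gene, where the share over such genes was 39.1% (15.6% above and 23.5% below). After rescaling, they lay above 0 for 5 genes and below 0 for none under WD, where the share over such genes was 45.1% (38.7% above and 6.42% below). In the deposited scaling, the 3 of 8 genes in each comparison are close to these shares. For genes whose mean was 1 FPKM or more, the 5th and 95th percentiles of the log2 difference were -0.47 and 0.54 under CD, a range that Gadd45g and Btg2 lay below, and -0.49 and 0.75 under WD, a range that Gadd45g lay below.

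The 2 diets were then compared without 7KC and with 7KC. These comparisons share their libraries with those above, so they are not independent of them. In WD relative to CD, 3 of the 8 genes were higher and 5 lower, with a median log2 difference of -0.13 beside 0.010 over 15597 genes. Btg2 was the 1 gene past 1 in size, where 9.69% of all genes were (5.31% above 1 and 4.38% below -1), and counting intervals excluded 0 for Cdkn1a, Btg2 and Sesn2, where 47.1% of genes with an interval did so (22.1% above and 24.9% below). In WD+7KC relative to CD+7KC, 4 were higher, 4 were lower and the median was 0.089. None was past 1, where 12.6% of all genes were (8.01% above 1 and 4.61% below -1), and counting intervals excluded 0 for Cdkn1a and Ccng1, where 52.1% did so (24.4% above and 27.7% below). After rescaling, 7 were higher, 1 was lower and the median was 0.30 beside 0.20 over all genes, and the interval of Ccng1 included 0 while that of Sesn2 did not, where 56.9% of genes had an interval that excluded 0 (42.8% above and 14.1% below). Cdkn1a was the only gene whose interval lay above 0 between diets both without and with 7KC, in either scaling.

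**Figure D3:**
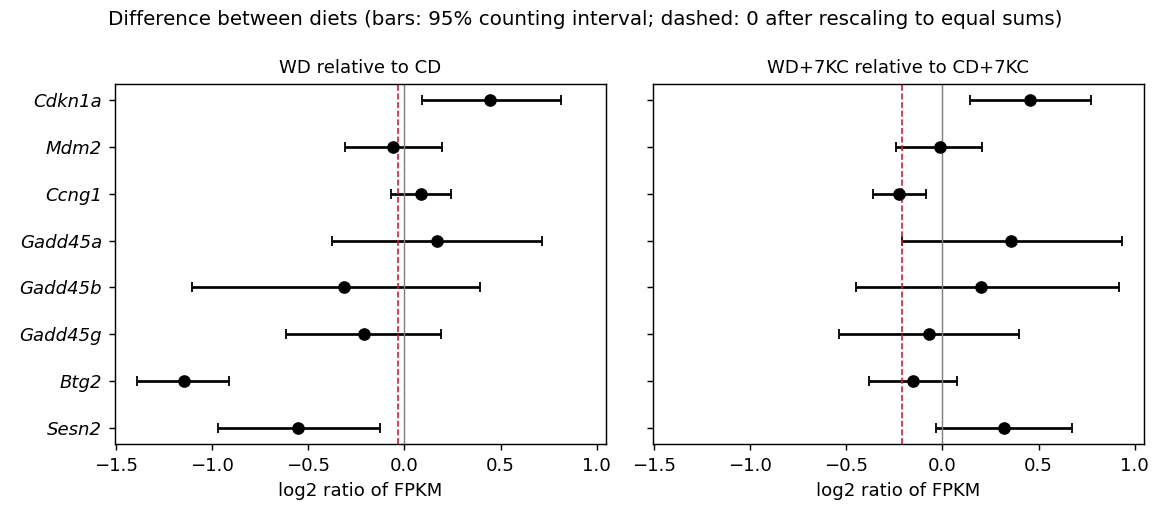
Log2 ratio of FPKM (x axis) for the 8 genes (y axis) in WD relative to CD (left) and WD+7KC relative to CD+7KC (right), with points for the ratio, bars for the 95% counting interval, and a dashed line where 0 lies after rescaling to equal sums. Cdkn1a lies above 0 in both panels, at 0.44 and 0.46, and Btg2 lies at -1.15 on the left and -0.15 on the right. These ratios are drawn without the 0.1 that was added to FPKM for the differences in the text.

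Other genes of the pathway were described from lists, whose counts stand beside the shares of all genes past 1 given above. A gene called highest or lowest of a list is so among the list's genes with a mean of 1 FPKM or more. Of the genes that control p53, Trp53, which encodes p53 itself, was at 8.22 FPKM in CD, 8.39 FPKM in CD+7KC, 9.03 FPKM in WD alone and 12.3 FPKM in WD+7KC. Its log2 difference was 0.028 with 7KC under CD and 0.44 under WD. In that list of 7 genes the median was -0.23 under CD, with 3 higher and 4 lower, and 0.12 under WD, with 4 higher and 2 lower of 6 measured (0.33 after rescaling, with the same counts). Trp53inp1 was highest under CD (0.25) and Siah1a lowest (-0.34), while Rchy1, which encodes another p53 ubiquitin ligase, was lowest under WD (-0.44). None of these genes was past 1 in a 7KC comparison.

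For 13 apoptosis genes linked to p53 the median was -0.027 under CD, with 6 higher and 7 lower, and 0.16 under WD, with 9 higher and 4 lower. After rescaling these were 0.013, with 8 higher and 5 lower, and 0.36, with 12 higher and 1 lower. Only Tnfrsf10b, a death receptor gene, was past 1, at 0.335 FPKM without and 0.881 FPKM with 7KC under CD, and it was named after its values were seen. Phlda3 was highest under CD (0.60) and Zmat3 lowest (-0.11), and Bbc3, which encodes PUMA, was highest under WD (0.36) and Perp lowest (-0.30). For 9 repair and metabolism genes the median was 0.071 under CD, with 6 higher and 3 lower, and 0.14 under WD, with 7 higher and 2 lower (0.35 after rescaling, with 8 higher and 1 lower). Gdf15, a stress-induced cytokine gene, was highest in this list under both diets, with 33.9 FPKM without and 43.3 FPKM with 7KC under CD (0.35), and 15.3 FPKM without and 29.7 FPKM with 7KC under WD (0.96). Polk (-0.32) and Steap3 (-0.37) were lowest under CD and WD. The sestrin paralog Sesn1 was at 3.96, 4.60, 3.57 and 4.88 FPKM and Sesn3 at 6.18, 6.25, 3.40 and 3.49 FPKM in CD, CD+7KC, WD and WD+7KC. WD was thus the lowest library for Sesn1 as for Sesn2, and Sesn3 was lower in both WD libraries. No counting intervals are given for Sesn1 and Sesn3, and for Sesn2 WD and CD+7KC lay within counting error of each other.

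Of 15 other growth-arrest genes, Rprm was listed at 0 in all 4 libraries, and 14 were measured in each 7KC comparison. The median was 0.088 under CD, with 9 higher and 5 lower, and 0.085 under WD, with 8 higher and 6 lower. After rescaling, 13 were higher and 1 lower under WD, and the median was 0.28 beside 0.21 over all genes. Plk2, a polo-like kinase gene, was highest under both diets, at 3.98 FPKM in CD, 6.44 FPKM in CD+7KC, 4.88 FPKM in WD alone and 7.49 FPKM in WD+7KC. Ccng2 (-0.33) was lowest under CD and Tob2 (-0.54) under WD. The 1 gene past 1 was Sfn, at 0.525 FPKM without and 1.17 FPKM with 7KC under WD, which was named after its values were seen.

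Genes that drive the cell cycle were measured beside the growth-arrest genes. All 10 proliferation genes were higher with 7KC under both diets, with a median log2 difference of 1.03 under CD and 0.54 under WD, and 6 and 1 of them were above 1, where 3.84% and 6.21% of all genes were. Their levels were low, with a sum of 14.0 FPKM in CD, 25.1 FPKM in CD+7KC, 19.8 FPKM in WD alone and 29.5 FPKM in WD+7KC. Most of those above 1 under CD were below 1 FPKM in the CD library. At such levels the count above 1 depends on the pseudocount, and no counting intervals are given for these genes. Mki67, which encodes the proliferation antigen Ki-67, was at 0.431 FPKM in CD, 1.40 FPKM in CD+7KC, 0.747 FPKM in WD alone and 1.59 FPKM in WD+7KC. Under CD it was highest (1.497) and Mcm2 lowest (0.18), and under WD Mcm5 was highest (1.003) and Ccna2 lowest (0.21). Mki67 reached the mean of 1 FPKM only through the libraries with 7KC, so the filter favoured its rank. Aurkb, with a larger log2 difference under CD (2.01), did not reach that mean. Macrophage markers were higher beside them, 9 of 10 under CD (median 0.70) and 10 of 10 under WD (median 1.01), as were endothelial markers, 4 of 5 under CD (median 0.49) and 5 of 5 under WD (median 1.504), and the part of these cells in the proliferation genes was not tested. The 9 genes of the G1 list, which holds cyclins and kinases as well as Pcna, are targets and partners of p21. Their median was 0.038 under CD and 0.17 under WD (0.39 after rescaling). Ccnd1, which encodes cyclin D1, was at 6.87 FPKM in CD, 6.57 FPKM in CD+7KC, 24.8 FPKM in WD alone and 34.6 FPKM in WD+7KC, so that, like Cdkn1a, it was higher in both WD libraries than in both CD libraries. It was highest of its list under WD (0.48), with Cdk6 lowest (0.007), and under CD Ccnd2 was highest (0.28) and Ccne1 lowest (-0.52).

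Because Btg2 and Gadd45b are also immediate early genes, and Sesn2 is also an ATF4 target, lists of these were set beside them. Of 14 immediate early genes, 4 were higher and 10 lower with 7KC under CD (median -0.19), and 11 were higher and 3 lower under WD (median 0.45), or 12 higher and 2 lower after rescaling (median 0.66). With 7KC, 1 was below -1 under CD and 2 were above 1 under WD, where 2.91% and 6.21% of all genes were. In WD relative to CD, 14 of 14 were lower, with a median of -0.67, and 4 were below -1, where 4.38% of all genes were. In WD+7KC relative to CD+7KC, 5 were higher and 9 lower (median -0.093), or 8 higher and 6 lower after rescaling (median 0.11). In the 7KC comparisons, Ier3 was lowest under CD (-1.59) and highest under WD (1.54), Atf3 was highest under CD (0.33), and Zfp36 was lowest under WD (-0.61). The level of Ier3 was low, at 2.36, 0.717, 0.956 and 2.97 FPKM in CD, CD+7KC, WD and WD+7KC, and no counting interval is given for it. Of 10 ATF4 response genes, 3 were higher and 7 lower under CD (median -0.13), and 4 were higher and 6 lower under WD (median -0.019). After rescaling, 7 were higher and 3 lower under WD, with a median of 0.20. In the deposited scaling, 2 of the 10 were below -1 under CD, where 2.91% of all genes were, and none was past 1 under WD. Chac1, which degrades glutathione, was lowest under CD, with 8.91 FPKM without and 2.05 FPKM with 7KC, and Ddit4 was highest (0.23). Trib3 was lowest under WD (-0.71) and Ddit3 highest (0.35). The median of 15 clock genes was -0.018 under CD and -0.18 under WD, or 0.022 and 0.037 after rescaling, with Per2 highest under both diets (0.49 and 0.45) and Nr1d1 (-0.31) and Ciart (-0.69) lowest.

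**Figure D4:**
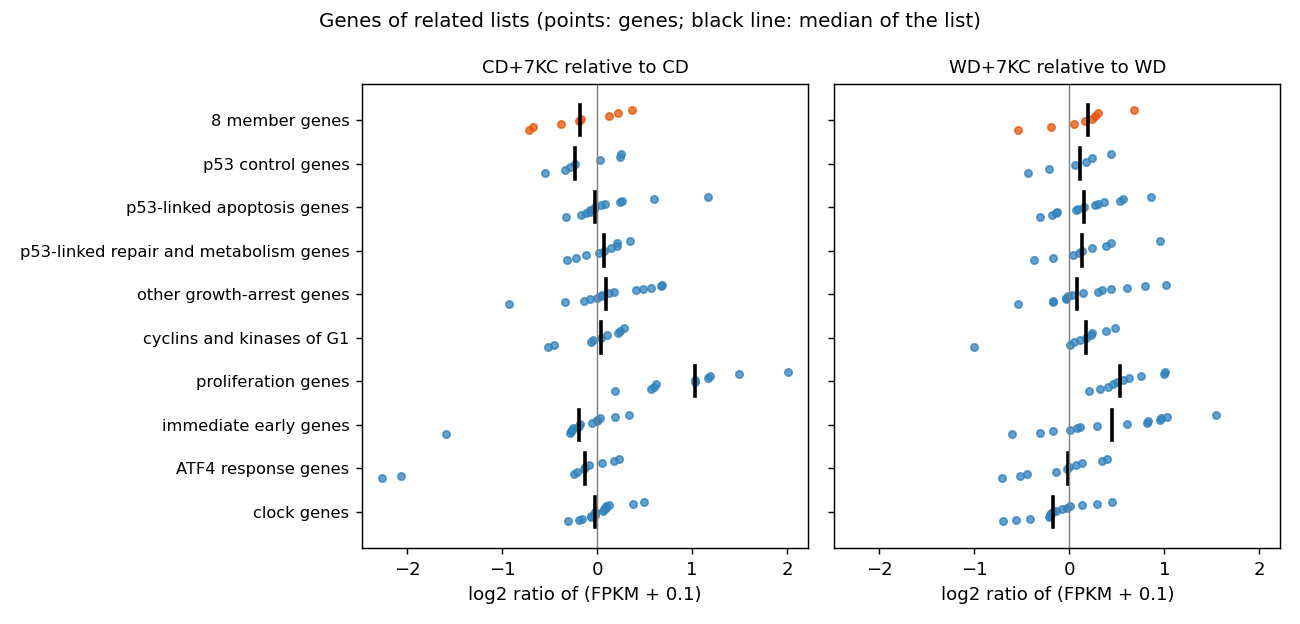
Log2 ratio of FPKM + 0.1 (x axis) for the genes of 10 groups (y axis) in CD+7KC relative to CD (left) and WD+7KC relative to WD (right), with 1 point per gene and a black line at the median of each group. The 10 proliferation genes lie right of 0 in both panels, the 8 genes spread to both sides, and the immediate early genes have their median at -0.19 on the left and 0.45 on the right.

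For the 3 genes with the widest range over the libraries, the genes with the most similar profile were sought over 10685 genes whose mean was 1 FPKM or more, by the Euclidean distance over the 4 log2 values after the mean of each gene was removed. Nearest to Btg2 were Ptpn4 (distance 0.14), Snhg4 (0.18) and D330050I16Rik (0.21), and 2 genes lay within 0.2. Nearest to Gadd45g were Smlr1 (0.069), Wipi1 (0.12) and Trmt61b (0.12), and 20 genes lay within 0.2. Smlr1 was at 81.7, 54.5, 72.4 and 49.6 FPKM in CD, CD+7KC, WD and WD+7KC, lower in both libraries with 7KC. Nearest to Sesn2 were Adgrg3 (0.038), Pfkfb2 (0.065) and Zfp935 (0.070), and 71 genes lay within 0.2. With only 4 libraries many genes can share a profile, and none of the other 7 genes was among the 3 nearest to any of them.

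**Figure D5:**
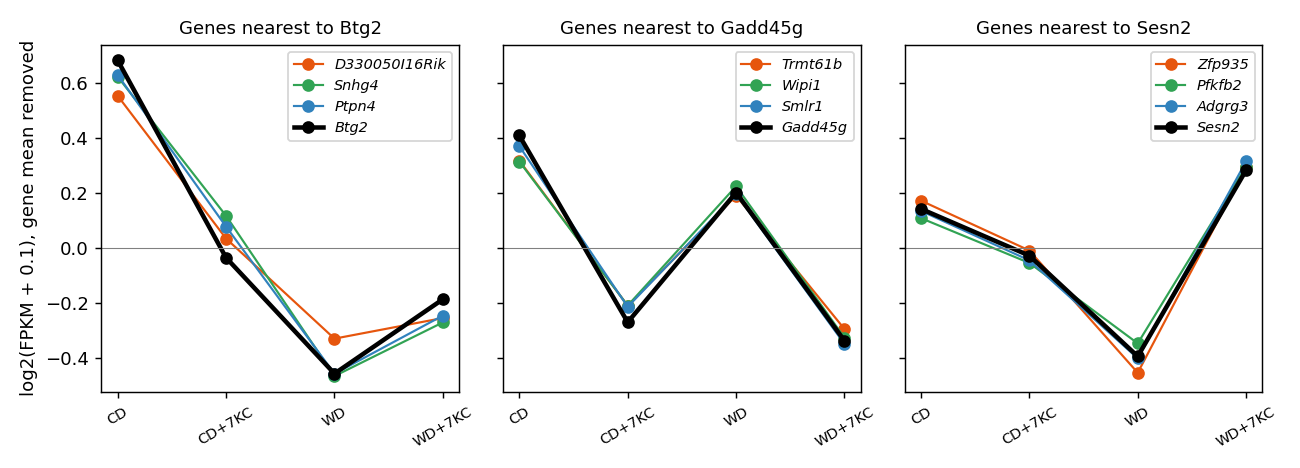
Profiles of Btg2, Gadd45g and Sesn2 (black) and of the 3 genes nearest to each (coloured) over the CD, CD+7KC, WD and WD+7KC libraries (x axis), as log2(FPKM + 0.1) with the mean of each gene removed (y axis). Btg2 and its neighbours are highest in CD, Gadd45g and its neighbours are lowest in both libraries with 7KC, and Sesn2 and its neighbours are lowest in WD.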

How the data were processed

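Total RNA of liver was sequenced as stranded mRNA libraries with single-end reads, 1 library per group. Per the labels, the authors mapped reads to mm10 (GRCm38) with TopHat2 2.0.13, Bowtie2 2.2.3 and SAMtools 0.1.19 and computed the deposited FPKM values with Cufflinks 2.2.1. The annotation and the Cufflinks options are not given in the sources used here.

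From the FPKM values, log2 ratios of FPKM + 0.1 were computed for genes above 0 in at least 1 of the 2 libraries, and genes above 1 or below -1 were counted. With 1 library per group no test across genes was made. Fragments per library were estimated from the spacing of low values in 13861 genes that have 1 RefSeq mRNA, using transcript length (GENCODE vM21) minus 200 bases, and 71.0% to 73.3% of low values lay within 0.1 of a whole read. The model was not checked against read counts. Intervals are exact (Clopper-Pearson, 95%) and cover counting error only. The code was tested on simulated data. Alternatives were pseudocounts of 1 and 0.01, a minimum of 1 FPKM, rescaling to equal sums (TPM) and median-ratio scaling, and intervals rescaled to equal sums were added after seeing the data.

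The members and lists were chosen with earlier results of these data known. Named genes are the 8 members, the highest and lowest gene of each list in each 7KC comparison among those with a mean of at least 1 FPKM, and the 3 genes nearest in profile to the 3 members of widest range. Tnfrsf10b, Sfn, Sesn1, Sesn3, Rprm, Alb, Asns, Aurkb and the p53-site genes Bco1, Calhm2, Mthfd1 and Rps27l fall outside this rule. They were named after their values were seen. The motifs were chosen after the values were seen. Promoters came from RefSeq (GRCm38.p6). Python 3.11.15, numpy 2.4.6, pandas 2.3.3, scipy 1.17.1 and matplotlib 3.10.9 were used.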

Additional observations from a re-analysis of the deposited data

Results flagged for a closer look

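With 7KC, 3 of the 8 genes were lower under CD and higher under WD. For Btg2 the log2 difference under WD minus that under CD was 0.99, and both counting intervals excluded 0. For Sesn2 it was 0.85, with a counting interval above 0 under WD and one that included 0 under CD. For Gadd45b it was 0.49, with both intervals including 0. With 1 library in each group these differences between diets were not tested.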

How the results depend on the processing

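The median log2 difference of the 8 genes kept its sign in all 4 comparisons under every alternative run. The number of genes past 1, which was 1059 in CD+7KC relative to CD, 1418 in WD+7KC relative to WD, 1511 in WD relative to CD and 2007 in WD+7KC relative to CD+7KC, depended on low values. In the same order it was 113, 189, 287 and 541 when the pseudocount was 1, 2380, 2830, 2929 and 3582 when it was 0.01, and 287, 521, 602 and 1043 among genes with at least 1 FPKM. Under each of these, Btg2 in WD relative to CD was the only one of the 8 genes past 1. Of 128 values of single genes under the other alternatives (all 8 genes pass the minimum of 1 FPKM, which cannot move them), 126 stayed within their counting interval, and the others were Ccng1 after rescaling to equal sums (0.27 in WD+7KC relative to WD and -0.016 in WD+7KC relative to CD+7KC). Pseudocounts and median-ratio scaling moved these genes little, so most of the 128 values were unlikely to leave their interval. Values within their interval could still change sign. After rescaling to equal sums, Gadd45a turned from lower to higher in WD+7KC relative to WD (0.018). So did Mdm2 (0.19), Gadd45g (0.14) and Btg2 (0.057) in WD+7KC relative to CD+7KC. The share of calls above 1 in WD+7KC relative to WD was 69.0%, and 79.5% among genes with at least 1 FPKM. Rescaling raised it to 78.2%, and from 63.5% to 73.6% in WD+7KC relative to CD+7KC. In WD+7KC relative to WD it also moved the intervals of Cdkn1a, Mdm2 and Ccng1 above 0 and made that of Gadd45g include 0, so that 5 lay above 0 and 3 included 0, where 38.7% of genes with an interval lay above 0. The median of all genes rose to 0.21 in the same step. Under median-ratio scaling that median was 0.003, and Cdkn1a, Mdm2 and Ccng1 stayed near their deposited values, at 0.24, 0.17 and 0.052. No paired analysis was possible because each group had 1 library. For Gadd45a and Gadd45b, depth limits what differences can be seen.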
